A study of Mus musculus with 16 samples.

Results

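The data were ATAC-seq libraries, which read where a transposase can insert into chromatin, from thymocytes of C57BL/6J mice. The regions described here are the 549 of 73442 peaks (0.748%) whose signal was highest in the CD4 single positive cells labelled smSP of FL mice. A peak was taken when its smSP_FL mean was at least 30 normalised reads and when that mean plus 1 was at least 1.5 times each of the Treg_FL, preTreg_FL and mSP_FL means plus 1. The peaks were thus chosen by the FL columns alone, so FL values are given as a description and every test uses the 8 KO libraries.

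The 4 sorted CD4+CD8- populations were compared, each in KO and in FL mice. The smSP cells were CD25-, Foxp3-GFP- and TCRβ low with high CD24. Treg cells were Foxp3-GFP+ and TCRβ+, preTreg cells were CD25+ and Foxp3-GFP-, and mSP cells were CD25-, Foxp3-GFP- and TCRβ high with low CD24. KO mice were CNS4KO/Y Foxp3GFP/Y and FL mice were CNS4FL/Y Foxp3GFP/Y, so both genotypes carried the GFP reporter allele of the Foxp3 gene and differed at CNS4, a conserved non-coding sequence of that gene. There were 2 libraries in each of these 8 groups, and the libraries of 1 replicate number came from the same mouse, so n is 2 mice per genotype. Between 40000 and 50000 cells went into a library, and a library held between 5585827 and 11437401 reads in peaks. The labels used here give no age.

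CD4 single positive thymocytes leave positive selection as semimature cells, which still carry CD24, and become mature cells that gain the receptors and adhesion molecules needed to leave the thymus. Klf2 drives the egress receptor S1pr1, and Foxo1, Foxp1 and Btg1 belong to the programme that keeps such cells quiescent. Treg cells arise from the same CD4 single positive pool, in part through CD25+ precursors that lack Foxp3. Open sites away from gene starts often mark enhancers, which tend to differ between cell states more than promoters do.

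Promoters were rare among the 549 peaks. Of the 12 peaks that touched one, 4 are shown first because their sequence could be read from the RefSeq promoter table (GRCm38.p6, whose chromosomes are those of mm10). Each window runs from 250 bases before to 50 bases after a listed gene start. The windows below are the 3 with the largest smallest log2 fold of smSP_KO over the other KO populations and, last, the window of the peak with the most smSP_FL signal. All are printed 5′ to 3′ on the strand of their gene, and capitals mark the bases inside the peak. Aqp9 (chr9:71163240-71163539, minus strand) encodes a channel for water and glycerol, Adh1 (chr3:138277335-138277634, plus strand) an alcohol dehydrogenase, and Ntn5 (chr7:45683772-45684071, plus strand) a protein of the netrin family. Gm51661 (chr9:121454877-121455176, minus strand) is a predicted gene inside Trak1, whose protein links mitochondria to kinesin motors. The other 8 windows, not printed, were those of Adamts14, Tanc2, Gpr15, Ephb2, Hebp1, Gm39019, Cbfa2t3 and Clasp2.
Aqp9: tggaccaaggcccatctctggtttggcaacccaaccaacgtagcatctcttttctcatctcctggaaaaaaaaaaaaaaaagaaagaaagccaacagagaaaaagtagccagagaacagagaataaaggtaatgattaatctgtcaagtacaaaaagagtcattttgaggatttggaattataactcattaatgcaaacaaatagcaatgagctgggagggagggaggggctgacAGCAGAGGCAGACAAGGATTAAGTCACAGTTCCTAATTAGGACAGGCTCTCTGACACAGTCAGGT
Adh1: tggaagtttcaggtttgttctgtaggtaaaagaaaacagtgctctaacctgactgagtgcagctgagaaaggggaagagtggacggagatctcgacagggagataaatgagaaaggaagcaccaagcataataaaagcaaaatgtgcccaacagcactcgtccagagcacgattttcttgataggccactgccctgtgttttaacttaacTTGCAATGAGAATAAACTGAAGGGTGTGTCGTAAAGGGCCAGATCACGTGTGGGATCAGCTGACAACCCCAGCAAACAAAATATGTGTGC
Ntn5: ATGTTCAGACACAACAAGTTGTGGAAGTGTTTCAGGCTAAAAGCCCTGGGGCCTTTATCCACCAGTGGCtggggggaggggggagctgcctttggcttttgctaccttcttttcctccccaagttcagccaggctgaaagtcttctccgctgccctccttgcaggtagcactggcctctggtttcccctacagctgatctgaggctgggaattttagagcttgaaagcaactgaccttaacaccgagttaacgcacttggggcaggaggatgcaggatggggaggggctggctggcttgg
Gm51661: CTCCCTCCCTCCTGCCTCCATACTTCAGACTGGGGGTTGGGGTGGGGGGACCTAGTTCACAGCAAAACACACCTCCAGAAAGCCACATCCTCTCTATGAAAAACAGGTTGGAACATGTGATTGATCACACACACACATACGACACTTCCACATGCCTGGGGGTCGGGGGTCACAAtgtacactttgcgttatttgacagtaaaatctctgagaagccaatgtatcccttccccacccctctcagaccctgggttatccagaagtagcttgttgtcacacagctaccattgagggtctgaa

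The Aqp9 peak had 61.8 and 68.5 normalised reads in smSP_KO, against 6.08 and 8.64 in Treg_KO, 13.8 and 16.5 in preTreg_KO, and 49.3 and 33.0 in mSP_KO. Both smSP_KO libraries lay above the other 6, and mSP_KO was the nearest population. The Gm51661 peak had 341 and 390 in smSP_KO, 116 and 118 in Treg_KO, 98.8 and 112 in preTreg_KO, and 305 and 261 in mSP_KO. At the Adh1 peak the smSP_KO values were 33.6 and 31.5, against 15.8 and 21.1 in Treg_KO, 20.3 and 16.5 in preTreg_KO, and 17.2 and 24.4 in mSP_KO. The Ntn5 window carried 63.1 and 38.0 in smSP_KO, 19.5 and 11.5 in Treg_KO, 11.1 and 13.8 in preTreg_KO, and 33.3 and 31.6 in mSP_KO. Of the 12 promoter peaks, smSP was the highest of the 4 KO means at 9, and 0 were called higher in smSP_KO than in mSP_KO by the limma test described further on, which called 1.96% of all peaks tested.

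In all, 16 motifs were looked for on both strands of the 12 windows, as plain strings that do not contain each other, with N for any base. CACCC, the core of sites for KLF factors, was in 8 windows (66.7%), against 57.5% of 32851 promoter windows. CAGCTG, an E-box, was in 4 (33.3%, against 16.3%), and CAGGTG, another E-box, in 2 (16.7%, against 20.2%). The IRF string, GAAA and GAAA with 2 bases between them, was in 2 windows (16.7%, against 3.44%), and it stood furthest above its share of all windows as a ratio. GGGCGTG, a further KLF string, was in 2 (16.7%, against 8.44%), the FOXO string GTAAACA in 1 (8.33%, against 3.65%), and the GATA string AGATAA in 2 (16.7%, against 11.2%). AGGAAG, a core of ETS sites, was in 3 (25.0%, against 35.4%), the NFAT string GGAAAA in 3 (25.0%, against 23.4%), and the NF-kB string, GGGA and CC with 4 bases between them, in 3 (25.0%, against 20.7%). TGTGGT for RUNX was in 1 (8.33%, against 16.8%), AGGTCA for ROR in 1 (8.33%, against 16.3%), and TGANTCA for AP-1 in 1 (8.33%, against 7.81%). In the printed sequences the capitals hold CACCC or its reverse complement in Adh1 and Gm51661, and CAGCTG in Adh1. Absent from the 12 windows were CTTTGA, the core of TCF/LEF sites, the ETS string CCGGAAG and the STAT string TTCNNNGAA, which were in 16%, 8.86% and 8.3% of all windows. These are matches of letters in few windows, and no test of these shares was made.

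In FL mice the smSP mean at the 549 peaks ran between 33.4 and 473 normalised reads, with a median of 65.3. The ratio of smSP_FL to the highest other FL mean, with 1 added to each, had a median of 1.66 and a maximum of 6.06. The lead was mostly small: 201 peaks had a ratio under 1.6, 80 reached 2 and 11 reached 3. The next highest FL population was mSP at 381 peaks, Treg at 89 and preTreg at 79. Just inside the limit on level lay peaks at Gpr19 (33.4), Gm31658 (34.6) and Gm36284 (34.8), and just outside lay peaks at Qrich1 (29.9) and Foxp1 (29.1) and 1 with no gene near it (28.7). Just inside the limit on ratio lay Slc39a10 (1.5005), Gm31658 (1.501) and Diaph2 (1.5016), and just outside lay Calcrl (1.4987), Gm42223 (1.4984) and D630010B17Rik (1.498).

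The labels were checked first. The peak at chrX:7570739-7571052, which lies upstream of Foxp3, had 0 reads in all 8 KO libraries and between 47.7 and 140 normalised reads in the 8 FL libraries. At several marker genes the data went against the maturation labels. Summed over the 10 peaks assigned to Cd24a, which encodes the surface protein sorted as high in smSP, smSP_KO had 257 and 334 normalised reads, against 554 and 578 in mSP_KO. The 1 Rag1 peak, a gene of the recombinase of immature cells, had 107 and 139 in smSP_KO, against 224 and 228 in mSP_KO. S1pr1 summed to 2963.4 and 2532.1 in smSP_KO, against 1853.1 and 1716.5 in mSP_KO. Other markers did not go against the labels. The median log2 fold of smSP_KO over mSP_KO was near 0 at Sox4 (-0.03), Satb1 (-0.03), Arpp21 (-0.11) and Itgb7 (0.08). It was -0.28 at the 1 peak of Ly6c1, a gene of mature cells. Of 15 peaks at Cd69, a gene of semimature cells, 2 were called higher in smSP_KO and 0 lower. Of 94 peaks at 8 genes of mature cells, 18 were called higher and 0 lower in smSP_KO than in mSP_KO (1.96% and 2.35% of all peaks tested), and of 121 peaks at genes of semimature cells 5 were called higher and 5 lower. Without the smSP and mSP libraries of KO replicate 2, these counts were 10 higher and 0 lower of 92 tested at genes of mature cells, and 1 higher and 1 lower of 119 at genes of semimature cells (1.65% and 1.34% of all 73091 peaks then tested). The population is therefore named only by its label, smSP. Those 2 libraries are in doubt, because their descriptions name the opposite populations from the titles. The titles were followed, and counts over the 549 peaks and over gene lists are given with and without both libraries. Values of single libraries and mice are printed one by one, so that replicate 1 can be read by itself.

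The same order was then looked for in KO mice, which the choice of peaks did not use. At the 549 peaks smSP was the highest of the 4 KO means at 468 (85.2%, against 16.3% of all 73442 peaks), mSP at 59, preTreg at 12 and Treg at 10. The full rule, level and ratio together, was met on the KO means at 183 (33.3%, against 0.64% of all peaks), which was 38.9% of the 470 peaks that meet it in KO mice. The ratio of smSP_KO to the highest other KO mean had a median of 1.32 and ran between 0.587 and 3.68. It was under 1 at 81 peaks, between 1 and 1.5 at 284, and at least 1.5 at 184. Both smSP_KO libraries lay above all 6 other KO libraries at 299 peaks (54.5%, against 4.34% of all peaks). Without the 2 libraries in doubt, smSP was the highest KO mean at 443 (80.7%, against 19.0% of all peaks) and the full rule was met at 214 (39.0%, against 1.3%). Within single KO mice, smSP was the highest population at 438 peaks (79.8%) in replicate 1 and at 413 (75.2%) in replicate 2, against 18.2% and 17.8% of all peaks.

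The median signal of the 549 peaks was 63.1 and 56.5 normalised reads in the smSP_KO libraries, 21.9 and 22.1 in Treg_KO, 29.5 and 28.5 in preTreg_KO, and 42.5 and 41.6 in mSP_KO. The libraries of a population lay close together and no 2 populations overlapped in this median. Over all 73442 peaks the median of a library was between 51.2 and 55.1. In bulk libraries a larger share of cells with a site open and more insertions per open cell cannot be told apart.

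**Figure D1:**
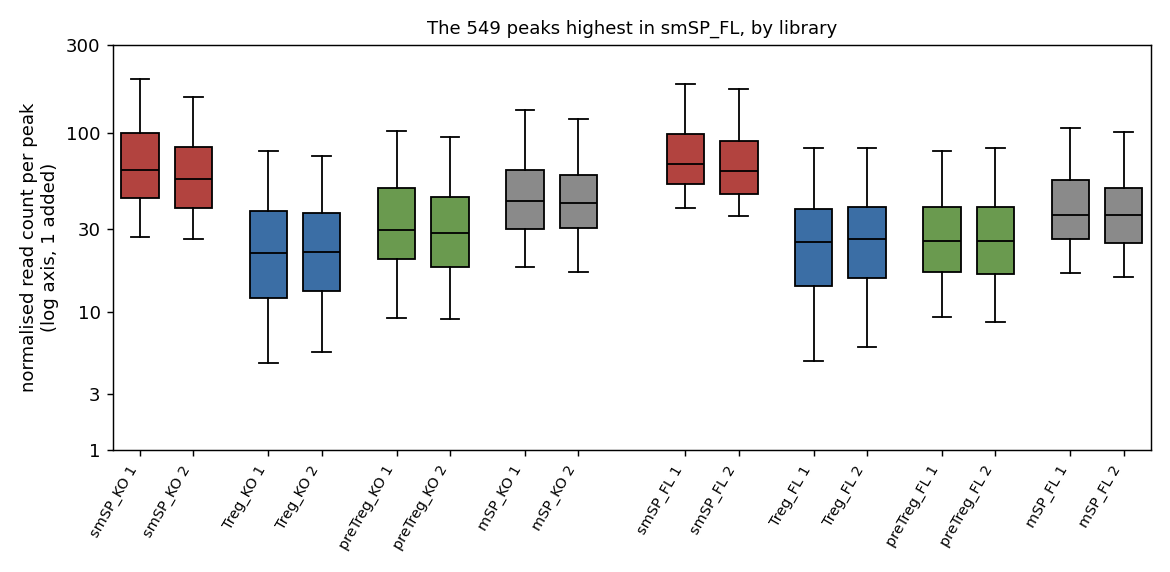
Normalised read count per peak (log axis, 1 added) of the 549 peaks in each of the 16 libraries, KO libraries left and FL libraries right. Boxes span the quartiles with the median as a line, and whiskers reach the 5th and 95th percentiles. The smSP libraries of both genotypes have the highest medians and the Treg_KO libraries the lowest, and the FL boxes show the values that chose the peaks.

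In KO libraries the 549 peaks were mostly more open in smSP than in Treg and preTreg cells, and a small part of them passed the test against mSP. Tests were made with limma on log2 of the value plus 1, over 73115 peaks with a mean of at least 10, and a call is a Benjamini-Hochberg adjusted p under 0.05. All 549 peaks passed that filter, 5 of them with a mean under 10 over the 6 Treg_KO, preTreg_KO and mSP_KO libraries. In smSP_KO 409 were called higher than in Treg_KO (74.5%, against 17.1% of all peaks tested) and 0 lower (14.7% of all), with a median log2 fold of 1.38. Against preTreg_KO 321 were called higher (58.5%, background 13.8%) and 0 lower (background 12.8%), with a median log2 fold of 1.00. Against mSP_KO 67 were called higher (12.2%, background 1.96%) and 0 lower (background 2.35%), with a median log2 fold of 0.49. Over all peaks tested the 3 medians were -0.02, -0.01 and -0.01. The log2 fold was above 0 at 533, 529 and 484 of the 549 peaks in these 3 comparisons, which share the smSP_KO libraries. The shares of all peaks above 0 are not given beside these counts. At an unadjusted p under 0.05, limma had 1 peak lower against Treg_KO and 0 against preTreg_KO and mSP_KO, and edgeR and DESeq2 called 0 lower in each. The shares of all peaks lower by these measures are not given either. On recovered reads, edgeR called 77.8% of the 549 peaks higher in smSP_KO than in Treg_KO (17.7% of all peaks), 68.1% than in preTreg_KO (16.4%) and 20.4% than in mSP_KO (1.89%). DESeq2 called 63.2% (12.1%), 44.6% (8.75%) and 4.37% (0.416%) in the same comparisons.

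In all, 50 peaks were called higher in smSP_KO than in each of the 3 other KO populations (9.11%, against 0.131% of all peaks). A call in at least 2 of the comparisons was made at 299, and in none at 101. For these 2 counts the share of all peaks is not given. Of the 50, 44 also met the level and ratio rule on the KO means. The comparison with mSP rested on few libraries. For fits with 1 library left out, or with the 2 libraries in doubt exchanged, the share of all peaks called is not given. Their shares are therefore not to be read against the background of the full fit. Called peaks were a smaller part of the 549 without mSP_KO replicate 1 or mSP_KO replicate 2, and smallest without smSP_KO replicate 1. Without the 2 libraries in doubt they came to 5.46% (1.65% of all peaks tested), and with those 2 libraries exchanged to 0. Their absence left 67.6% called higher than Treg_KO (13.1% of all), 48.5% higher than preTreg_KO (8.83% of all) and 3.83% higher than all 3. The share called in all 3 comparisons fell when any 1 library of smSP_KO, mSP_KO or preTreg_KO was left out, most without smSP_KO replicate 1. Replicate 1 of smSP_KO also moved the count against preTreg_KO, to 35.2% of the 549 peaks, as did preTreg_KO replicate 2, to 35.7%.

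**Figure D2:**
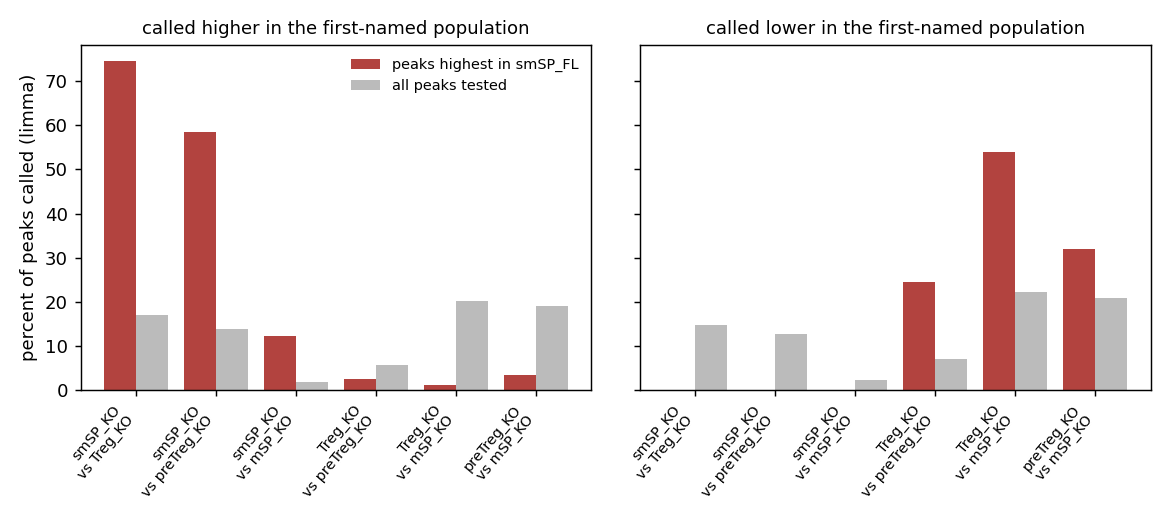
Percent of peaks called by limma in each of the 6 comparisons between KO populations, for the 549 peaks and for all peaks tested. The 549 peaks stand at 74.5%, 58.5% and 12.2% higher in smSP_KO than in Treg_KO, preTreg_KO and mSP_KO, against 17.1%, 13.8% and 1.96% of all peaks tested.

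In KO mice the 3 other populations differed from each other at these peaks, in an order among them that the rule did not set. Treg_KO was the lowest of the 3 at 357 peaks (65.0%, against 31.3% of all peaks). In FL mice, given as a description, Treg was the lowest of the 3 at 47.4% (28.2% of all peaks). The median signal there was 26.1 in both Treg_FL and preTreg_FL, so the step between these 2 populations was not seen in the FL medians. The full order smSP, mSP, preTreg, Treg held on the KO means at 240 peaks. Its first place follows the choice of the peaks, so it is read among peaks with smSP as the highest KO mean, where it held at 51.3% of the 468 and at 32.2% of all such peaks. Without the 2 libraries in doubt, Treg_KO was the lowest of the 3 at 64.1% (31.0% of all peaks), and the full order held at 49.4% of peaks with smSP highest, against 29.0% of all such peaks. In Treg_KO 6 peaks were called higher than in mSP_KO (1.09%, background 20.2%) and 296 lower (53.9%, background 22.2%), with a median log2 fold of -0.90. In preTreg_KO 19 were called higher than in mSP_KO (3.46%, background 19.0%) and 175 lower (31.9%, background 20.9%), with a median log2 fold of -0.47. In Treg_KO 14 were called higher than in preTreg_KO (2.55%, background 5.73%) and 135 lower (24.6%, background 6.98%), with a median log2 fold of -0.37. Over all peaks the medians of these 3 comparisons were 0.02, 0.02 and -0.01. Several libraries moved these shares, and the shares of all peaks are not given for fits with 1 library left out. The share lower in Treg_KO than in preTreg_KO fell without either preTreg_KO library. The share lower in preTreg_KO than in mSP_KO fell without preTreg_KO replicate 2 and without mSP_KO replicate 1. Without both libraries in doubt, it came to 23.7% (17.0% of all peaks tested), the share lower in Treg_KO than in preTreg_KO also to 23.7% (7.26%), and the share lower in Treg_KO than in mSP_KO to 47.2% (18.8%). The small shares called higher moved too: Treg_KO over preTreg_KO came to 0.546% without Treg_KO replicate 1 and 0.911% without preTreg_KO replicate 2, and Treg_KO over mSP_KO to 0.364% without Treg_KO replicate 1 or mSP_KO replicate 2. For preTreg_KO over mSP_KO they came to 0.911% and 1.46% without preTreg_KO replicates 1 and 2, and to 2.00% and 1.82% without mSP_KO replicates 1 and 2.

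Among the 50 peaks called in all 3 comparisons, the 10 with the largest smallest fold were described one by one. Aqr, an RNA helicase of the spliceosome, holds a peak in its gene body at chr2:114136789-114137102 with 197 and 146 normalised reads in smSP_KO, 10.9 and 15.4 in Treg_KO, 56.3 and 50.5 in preTreg_KO, and 45.9 and 27.3 in mSP_KO. Its smSP_KO libraries lay far above the rest, and the log2 fold over mSP_KO was 2.23 ± 0.29 (SE, limma adjusted p = 8.5e-05). In FL mice the means were 182 ± 36.1 in smSP, 16.1 ± 2.67 in Treg, 37.4 ± 0.794 in preTreg and 42.3 ± 4.00 in mSP (SD, n = 2 each). A peak with no gene within 50 kb, at chr9:85105401-85105645, had 110 and 70.6 in smSP_KO, 9.73 and 14.4 in Treg_KO, 9.23 and 10.1 in preTreg_KO, and 21.8 and 25.8 in mSP_KO. It is the peak with the largest FL ratio, 6.06, and its KO libraries did not overlap between smSP and the rest (log2 fold over mSP_KO 1.85 ± 0.39, limma adjusted p = 0.00637). Ptgfrn, a membrane protein of the immunoglobulin superfamily, holds a peak at chr3:101066170-101066541 with 361 and 253 in smSP_KO, 65.7 and 55.7 in Treg_KO, 125 and 108 in preTreg_KO, and 119 and 128 in mSP_KO. Here preTreg_KO and mSP_KO overlapped and smSP_KO stood above both (log2 fold over mSP_KO 1.29 ± 0.19, limma adjusted p = 0.000324).

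Ibtk, an inhibitor of Bruton's tyrosine kinase, holds a peak at chr9:85710358-85710678 with 214 and 128 in smSP_KO, 4.86 and 17.3 in Treg_KO, 71.1 and 59.7 in preTreg_KO, and 45.9 and 33.0 in mSP_KO. Treg_KO was lowest by far, and the log2 fold of smSP_KO over mSP_KO was 2.06 ± 0.43 (limma adjusted p = 0.019). Acvr1b, a type I receptor for activin, holds a peak at chr15:101195503-101195734 with 111 and 69.6 in smSP_KO, 19.5 and 18.2 in Treg_KO, 34.2 and 29.4 in preTreg_KO, and 29.8 and 28.7 in mSP_KO. The other 6 KO libraries lay between 18.2 and 34.2 (log2 fold over mSP_KO 1.56 ± 0.30, limma adjusted p = 0.00366). Ly75, the endocytic receptor DEC-205, holds a peak at chr2:60375225-60375438 with 80.6 and 47.8 in smSP_KO, 4.86 and 6.72 in Treg_KO, 24.0 and 14.7 in preTreg_KO, and 25.2 and 17.2 in mSP_KO. The 4 others were assigned to Vamp9, Tbcel, Gm26008 and Tanc1, with log2 folds over mSP_KO of 2.19, 1.49, 1.37 and 1.59. Replicate 1 was higher than replicate 2 in smSP_KO at all 10 peaks. Of the 10, the peaks in Aqr and Ptgfrn kept their call against mSP_KO whichever smSP_KO or mSP_KO library was left out, and with replicate 2 of both left out. The other 8 lost it without smSP_KO replicate 1, and all of these but the Acvr1b peak lost it in further such settings. The peaks assigned to Ly75 and Tanc1 lost it in each of these settings. With DESeq2 the peaks assigned to Ly75, Gm26008 and Tanc1 were not called.

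**Figure D3:**
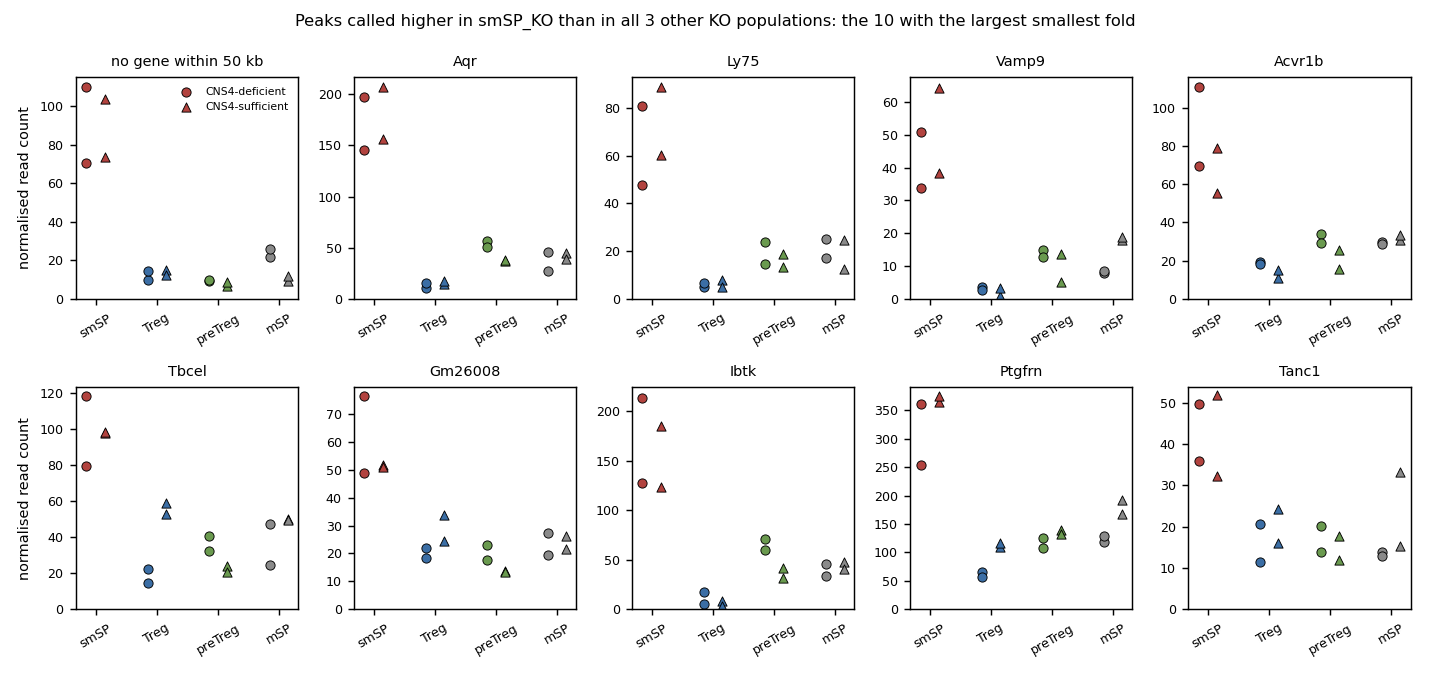
Normalised read count of 10 peaks called higher in smSP_KO than in all 3 other KO populations, 1 point per library, with circles for KO (CNS4-deficient) and triangles for FL (CNS4-sufficient) mice and the populations in the order smSP, Treg, preTreg, mSP. The smSP points lie above the other KO points of each panel, as with 197 and 146 in smSP_KO against 45.9 and 27.3 in mSP_KO at the Aqr peak.

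The 10 peaks with the largest FL ratio include 4 of these 10, at Aqr, Ly75 and Ibtk and the one with no gene. Of the other 6, a peak at 2700049A03Rik (chr12:71192745-71192873) had 53.7 and 45.6 in smSP_KO, 2.43 and 3.84 in Treg_KO, 20.3 and 20.2 in preTreg_KO, and 6.88 and 15.8 in mSP_KO. Its log2 fold over mSP_KO was 2.13 ± 0.51 (limma adjusted p = 0.0159), and it was not called against preTreg_KO. That call was lost without either smSP_KO library or without mSP_KO replicate 1. The Adgrl2 peak at chr3:148913528-148913661, in the gene of an adhesion receptor, had 41.6 and 29.3 in smSP_KO, 0 and 1.92 in Treg_KO, 15.7 and 8.27 in preTreg_KO, and 19.5 and 7.18 in mSP_KO. The remaining 4, at Gm36284, 2810001G20Rik, Mideas and Zfhx3, were each called against Treg_KO and preTreg_KO and not against mSP_KO. At Zfhx3 (chr8:108880161-108880426), a homeobox factor gene, smSP_KO had 55.1 and 58.7, Treg_KO 9.73 and 11.5, preTreg_KO 9.23 and 11.9, and mSP_KO 37.9 and 53.1. There mSP_KO approached smSP_KO, while the FL means were 72.0 ± 18.6 in smSP and 19.1 ± 4.24 in mSP (SD, n = 2 each).

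Genes of mature cells and of egress from the thymus came next, as the first of the gene lists. For list counts without the 2 libraries in doubt, the shares of all peaks given with the marker genes apply. The list of 15 such genes had 163 peaks, of which 7 (4.29%, against 0.748% of all peaks) were among the 549, including 3 at S1pr1, 2 at Ccr7 and 1 at Cd55. These loci were not particular to smSP. By the same rule S1pr1 had 7 peaks highest in preTreg_FL, 3 in Treg_FL and 1 in mSP_FL. Ccr7 had 2 highest in Treg_FL and 0 in preTreg_FL and mSP_FL. Of 161 list peaks tested, 22 were called higher and 1 lower in smSP_KO than in mSP_KO (1.96% and 2.35% of all peaks tested), with a median log2 fold of 0.28. Without the 2 libraries in doubt 13 were called higher and 0 lower. Cd55, which encodes a complement regulator on the cell surface, has a peak 10002 bases from its gene body at chr1:130475012-130475252. It had 253 and 212 in smSP_KO, 157 and 179 in Treg_KO, 166 and 163 in preTreg_KO, and 116 and 121 in mSP_KO. Here mSP_KO was the lowest population, and the log2 fold of smSP_KO over it was 0.96 ± 0.16 (limma adjusted p = 0.00085), a call that no left-out smSP_KO or mSP_KO library removed.

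S1pr1 and Ccr7, the egress receptor and the receptor that guides cells into the medulla, are given here after their values were seen, with every one of their peaks among the 549. The S1pr1 peak at chr3:115704431-115704586 had 99.4 and 58.7 in smSP_KO, 28.0 and 33.6 in Treg_KO, 35.1 and 38.6 in preTreg_KO, and 49.3 and 28.7 in mSP_KO. The Ccr7 peak at chr11:99145826-99146103 had 60.5 and 40.2 in smSP_KO, 21.9 and 18.2 in Treg_KO, 13.8 and 14.7 in preTreg_KO, and 16.1 and 30.1 in mSP_KO. At both peaks the smSP_KO libraries lay above the other 6, and both were called against Treg_KO and preTreg_KO but not against mSP_KO. The other 3 peaks were called in none of the comparisons. A further Ccr7 peak, at chr11:99150322-99150421, had 59.1 and 36.9 in smSP_KO, 19.5 and 36.5 in Treg_KO, 30.5 and 22.1 in preTreg_KO, and 34.4 and 27.3 in mSP_KO, with smSP_KO above the rest by a small step in replicate 2. The S1pr1 peak at chr3:115704843-115704970 had 37.6 and 43.5 in smSP_KO, 35.3 and 11.5 in Treg_KO, 36.0 and 41.4 in preTreg_KO, and 18.4 and 18.7 in mSP_KO. There smSP_KO and preTreg_KO overlapped. At the S1pr1 peak in the gene body, chr3:115711520-115711665, the values were 39.0 and 25.0 in smSP_KO, 45.0 and 30.7 in Treg_KO, 31.4 and 45.0 in preTreg_KO, and 22.9 and 20.1 in mSP_KO, so smSP was not the highest KO mean.

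Quiescence factors had 8 of 256 peaks (3.12%, against 0.748% of all peaks) among the 549, all at Btg1 and Foxp1. Calls over this list are to be read against 1.96% higher and 2.35% lower of all peaks tested. Of 255 list peaks tested, 9 were called higher and 0 lower in smSP_KO than in mSP_KO (median log2 fold 0.18), and without the 2 libraries in doubt 6 higher and 0 lower. Btg1, an antiproliferative factor that recruits deadenylation, had 6 of its 41 peaks among the 549, the most of any gene. Its highest peak, at chr10:96621474-96621867, had 336 and 404 in smSP_KO, 198 and 210 in Treg_KO, 297 and 249 in preTreg_KO, and 225 and 270 in mSP_KO. The smSP_KO libraries were the 2 highest, and the log2 fold over mSP_KO was 0.58 ± 0.14 (limma adjusted p = 0.0164). This call was lost without smSP_KO replicate 2 and without mSP_KO replicate 1. All 6 had smSP as the highest KO mean, and 2 were called in all 3 comparisons. Foxp1, a forkhead factor of naive T cells, has a peak at chr6:99350600-99350875 with 207 and 146 in smSP_KO, 116 and 86.4 in Treg_KO, 63.7 and 58.8 in preTreg_KO, and 95.2 and 78.9 in mSP_KO. Its log2 fold over mSP_KO was 0.99 ± 0.21 (limma adjusted p = 0.00737), and preTreg_KO was the lowest population. The call was lost without smSP_KO replicate 1 or mSP_KO replicate 2.

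Factors of the T and CD4 lineage had 10 of 382 peaks (2.62%, against 0.748% of all peaks) among the 549: 5 at Lef1, 3 at Tox, and 1 each at Bcl11b and Ikzf1. Calls over this list are to be read against 1.96% higher and 2.35% lower of all peaks tested. Of 379 list peaks tested, 13 were called higher and 3 lower in smSP_KO than in mSP_KO (median log2 fold 0.13), and without the 2 libraries in doubt 10 higher and 1 lower. Tox, a DNA-binding factor needed for the CD4 lineage, has a peak at chr4:6970407-6970759 with 493 and 496 in smSP_KO, 215 and 190 in Treg_KO, 343 and 292 in preTreg_KO, and 304 and 329 in mSP_KO. The smSP_KO libraries agreed closely and lay above the rest (log2 fold over mSP_KO 0.64 ± 0.12, limma adjusted p = 0.00313), a call lost without smSP_KO replicate 1. The abutting Tox peak at chr4:6970767-6970902 had 153 and 142 in smSP_KO, 59.6 and 65.3 in Treg_KO, 85.9 and 68.0 in preTreg_KO, and 159 and 103 in mSP_KO. There smSP_KO and mSP_KO overlapped, with a log2 fold of 0.20 ± 0.21 (limma adjusted p = 0.672). Lef1, a partner of beta-catenin, had 5 of its 38 peaks among the 549. The highest, at chr3:131200008-131200209, had 137 and 125 in smSP_KO, 69.3 and 38.4 in Treg_KO, 25.9 and 18.4 in preTreg_KO, and 73.4 and 53.1 in mSP_KO (log2 fold over mSP_KO 1.06 ± 0.28, limma adjusted p = 0.0289), a call lost without smSP_KO replicate 1, smSP_KO replicate 2 or mSP_KO replicate 2. Of the 5 Lef1 peaks, smSP was the highest KO mean at 4 and 2 were called in all 3 comparisons.

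Genes of immature and double positive thymocytes had 3 of 144 peaks (2.08%, against 0.748% of all peaks) among the 549, and all 3 were at Satb1, a chromatin organiser of thymocytes. Calls over this list are to be read against 1.96% higher and 2.35% lower of all peaks tested. By the same rule Satb1 also had 4 peaks highest in mSP_FL, 2 in Treg_FL and 0 in preTreg_FL. Of 142 list peaks tested, 3 were called higher and 5 lower in smSP_KO than in mSP_KO (median log2 fold -0.10), and without the 2 libraries in doubt 1 higher and 3 lower. A peak 24429 bases from Satb1, at chr17:51857720-51857921, had 101 and 76.1 in smSP_KO, 29.2 and 36.5 in Treg_KO, 10.2 and 8.27 in preTreg_KO, and 47.0 and 33.0 in mSP_KO. Its log2 fold over mSP_KO was 1.13 ± 0.32 (limma adjusted p = 0.0402), and each of the 4 smSP_KO and mSP_KO libraries removed the call when left out. The Satb1 peak at chr17:51805341-51805656 had 197 and 146 in smSP_KO, 28.0 and 60.5 in Treg_KO, 56.3 and 41.4 in preTreg_KO, and 149 and 129 in mSP_KO. At that peak mSP_KO came close to smSP_KO (log2 fold 0.29 ± 0.28, limma adjusted p = 0.647).

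Signalling genes came next, to be read against the 0.748% of all peaks that belong to the 549. Their calls are to be read against 1.96% higher and 2.35% lower of all peaks tested. Proximal T cell receptor signalling had 3 of 218 (1.38%), at Cd247 and Plcg1, with 10 list peaks called higher and 1 lower in smSP_KO than in mSP_KO among 217 tested, and 9 higher and 0 lower without the 2 libraries in doubt. Cd247, the zeta chain of the receptor complex, has a peak at chr1:165808326-165808522 with 64.5 and 65.2 in smSP_KO, 17.0 and 29.8 in Treg_KO, 35.1 and 19.3 in preTreg_KO, and 35.6 and 14.4 in mSP_KO (log2 fold over mSP_KO 1.47 ± 0.40, limma adjusted p = 0.0348). This call was lost without smSP_KO replicate 1, smSP_KO replicate 2 or mSP_KO replicate 2. A further Cd247 peak, at chr1:165817318-165817478, had 61.8 and 57.6 in smSP_KO, 12.2 and 23.0 in Treg_KO, 27.7 and 40.4 in preTreg_KO, and 29.8 and 50.2 in mSP_KO, and its log2 fold over mSP_KO was 0.61 ± 0.34 (limma adjusted p = 0.348). The response to receptor and co-stimulation signals had 0 of 259 peaks among the 549, while 18 of 257 list peaks tested were called higher and 2 lower. Cytokine receptors had 0 of 127, with 9 of 127 called higher and 0 lower (median log2 fold 0.30). Without the 2 libraries in doubt these counts were 8 and 2 for the response genes and 10 and 0 for cytokine receptors.

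STAT5 and cytokine feedback genes had 2 of 120 peaks (1.67%), both at Bcl2, an inhibitor of apoptosis. The Bcl2 peak at chr1:106602653-106602894 had 80.6 and 80.4 in smSP_KO, 42.6 and 49.9 in Treg_KO, 65.5 and 63.4 in preTreg_KO, and 74.6 and 71.8 in mSP_KO. Its values lay in the order smSP, mSP, preTreg, Treg without overlap, but by small steps (log2 fold over mSP_KO 0.14 ± 0.22, limma adjusted p = 0.799). The Bcl2 peak just past the gene body, at chr1:106714609-106714738, had 25.5 and 13.0 in smSP_KO, 30.4 and 34.6 in Treg_KO, 25.9 and 27.6 in preTreg_KO, and 29.8 and 15.8 in mSP_KO. Its FL mean was 52.3 ± 35.1 in smSP (SD, n = 2), so the FL replicates were far apart and the KO order was not that of FL. The NF-kB pathway had 1 of 175 peaks (0.571%) among the 549. Interferon genes had 1 of 44 (2.27%), at Irf1, with 43.0 and 51.1 in smSP_KO, 54.7 and 33.6 in Treg_KO, 48.0 and 34.0 in preTreg_KO, and 28.7 and 21.5 in mSP_KO.

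The Treg lists lay on both sides of the 0.748% of all peaks. The Treg signature had 1 of 189 peaks (0.529%), at Ikzf2, which encodes Helios. It had 39.0 and 38.0 in smSP_KO, 24.3 and 34.6 in Treg_KO, 21.2 and 30.3 in preTreg_KO, and 36.7 and 48.8 in mSP_KO. The effector Treg list had 3 of 167 (1.80%), at Prdm1 and Bach2. At the Prdm1 peak, in the gene of the repressor Blimp1, smSP_KO had 134 and 94.5, Treg_KO 49.9 and 41.3, preTreg_KO 96.0 and 88.2, and mSP_KO 89.5 and 67.5. At the Bach2 peak smSP_KO had 65.8 and 33.7, Treg_KO 29.2 and 37.4, preTreg_KO 15.7 and 17.5, and mSP_KO 28.7 and 40.2. Against mSP_KO none of the Ikzf2, Prdm1, Bach2 and Irf1 peaks was called. The list of other BCL2 family genes with 66 peaks, which leaves out Bcl2, and the list of chemokine and migration receptors with 73, which leaves out Ccr7 and S1pr1, had 0 among the 549. In smSP_KO against mSP_KO, 1.96% of all peaks tested were called higher and 2.35% lower. The numbers of list peaks called higher and lower there were 8 and 2 of 174 tested for NF-kB. They were 5 and 0 of 119 for STAT5 feedback, and 0 and 1 of 44 for interferon genes. They were 9 and 2 of 189 for the Treg signature, 6 and 1 of 166 for effector Treg genes, 2 and 0 of 65 for the other BCL2 family genes, and 6 and 2 of 73 for chemokine and migration receptors. Without the 2 libraries in doubt, the same numbers were 8 and 3 for NF-kB, 4 and 1 for STAT5 feedback, 0 and 0 for interferon genes, 14 and 1 for the Treg signature, 5 and 1 for effector Treg genes, 1 and 0 for the other BCL2 family genes, and 6 and 1 for chemokine and migration receptors.

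Markers of other cells were also looked at, to be read against the same shares of all peaks. These were 0.748% among the 549, and 1.96% called higher and 2.35% lower in smSP_KO than in mSP_KO. The list of innate-like T and NK genes had 2 of 24 peaks (8.33%), at Klrk1 and Klrd1, genes of NK receptors. The Klrk1 peak, at chr6:129608567-129608685, had 61.8 and 50.0 in smSP_KO, 26.8 and 22.1 in Treg_KO, 52.6 and 47.8 in preTreg_KO, and 31.0 and 17.2 in mSP_KO (log2 fold over mSP_KO 1.23 ± 0.31, limma adjusted p = 0.0234). It was lost without smSP_KO replicate 1, smSP_KO replicate 2 or mSP_KO replicate 2. The Klrd1 peak, at chr6:129591595-129591784, had 63.1 and 65.2 in smSP_KO, 19.5 and 17.3 in Treg_KO, 51.7 and 34.9 in preTreg_KO, and 44.8 and 37.3 in mSP_KO, and was not called against mSP_KO. Summed over the 24 peaks of the list, smSP_KO had 1541.0 to 1598.6, Treg_KO 1130.8 to 1177.3, preTreg_KO 1379.5 to 1412.5 and mSP_KO 1786.9 to 1800.3, and Gzmb and Ncr1 had no peak. The gamma-delta, B cell, myeloid and dendritic, and erythroid and stromal lists had 0 of 13, 5, 21 and 8 peaks among the 549. Cd79b, Ms4a1 and Pax5 had no peak, and the B cell list summed to 367 to 384 in smSP_KO, 304 to 332 in Treg_KO, 202 to 206 in preTreg_KO and 402 to 425 in mSP_KO. The myeloid and dendritic list summed to 1331.3 to 1447.5 in smSP_KO, 1156.8 to 1242.9 in Treg_KO, 1032.1 to 1084.8 in preTreg_KO and 1354.9 to 1430.9 in mSP_KO, and Itgax, Cd14, Csf1r, Lyz2 and Siglech had no peak. Over these 5 lists of other cells, 2 peaks were called higher and 0 lower in smSP_KO than in mSP_KO, and 3 and 2 without the 2 libraries in doubt. The share of such cells in the results was not tested.

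The 549 peaks were spread over 436 genes, and 22 had no gene within 50 kb. Of the genes, 65 had 2 or more of the peaks, 156 in all. After Btg1 and Lef1 came 4930546C10Rik, Atp10a, Gm20098, Pid1 and Rgcc with 4 each, and 9 genes had 3. All 4 peaks assigned to Pid1, which encodes an adaptor that binds a lipoprotein receptor, were among the 549. The one with the most FL signal, at chr1:84318655-84318806, had 216 and 154 in smSP_KO, 25.5 and 35.5 in Treg_KO, 62.8 and 74.4 in preTreg_KO, and 159 and 132 in mSP_KO, so mSP_KO replicate 1 overlapped with smSP_KO (log2 fold 0.33 ± 0.22, limma adjusted p = 0.456). Of 5 peaks assigned to Dhx40, a helicase gene, 3 were among the 549, and all 3 were called higher in smSP_KO than in mSP_KO. They lie within 1141 bases of each other and were not counted as independent. The highest, at chr11:86811104-86811324, had 95.4 and 78.2 in smSP_KO, 18.2 and 20.2 in Treg_KO, 47.1 and 48.7 in preTreg_KO, and 26.4 and 34.4 in mSP_KO (log2 fold over mSP_KO 1.49 ± 0.28, limma adjusted p = 0.0029), a call lost without smSP_KO replicate 1. At this peak preTreg_KO lay above mSP_KO, an order seen in the KO means of 118 of the 549 peaks. The share of all peaks with that order is not given.

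Of the remaining genes in this group, the highest peak near Atp10a, a phospholipid transporter, at chr7:58618163-58618377, had 148 and 120 in smSP_KO, 54.7 and 52.8 in Treg_KO, 93.2 and 83.6 in preTreg_KO, and 80.3 and 73.2 in mSP_KO (log2 fold over mSP_KO 0.79 ± 0.20, limma adjusted p = 0.0274), a call lost without smSP_KO replicate 1 or either mSP_KO library. The 4 peaks of 4930546C10Rik lie within 0.9 kb and were not counted as independent either. Rgcc, a regulator of the cell cycle, had smSP as the highest KO mean at 4 of 4 peaks, with smSP_KO means between 24.6 and 36.2 and 0 calls against mSP_KO. Counted by position, 78 stretches held 2 or more of the peaks with gaps of at most 100 kb, 201 peaks in all (36.6%), and 11 stretches held 4 or more. The stretch with most of the peaks ran over 104.5 kb around Btg1 (chr10:96602451-96706922) with 8 of its 52 peaks, and smSP was the highest KO mean at all 8. The next by number ran over 94.3 kb between Satb1 and Gm20098 (chr17:51805341-51899644) with 7 of 54 peaks, 6 of them highest in smSP_KO. By length, the one at Atp10a with 5 of the peaks ran over 188.0 kb. Neighbouring peaks of 1 stretch were not counted as independent. Among the rest were 4 peaks at variable segments (Ighv1-66, Ighv1-69, Trav13d-4 and Trbv5), where reads can be shared between near-identical copies, so their values are uncertain.

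The lead of smSP was smaller in KO than in FL mice. Choosing the peaks by FL values can give such a difference by itself. How much of it comes from that choice cannot be told here, so no test is given. The median signal of the 549 peaks was 59.4 in smSP_KO and 65.3 in smSP_FL, and the median log2 difference KO minus FL was -0.16. It was -0.11 in Treg, 0.20 in preTreg and 0.21 in mSP, and over all peaks it was between 0.00 and 0.01. Within a mouse, the median log2 difference of smSP minus mSP was 0.58 and 0.42 in the KO mice and 0.86 and 0.79 in the FL mice. The same rule applied to the other populations was met in both genotypes at 69.2% of 3274 Treg peaks, 37.2% of 3132 preTreg peaks and 62.5% of 3872 mSP peaks, against 33.3% here. Without the 2 libraries in doubt the share here was 39.0%. The shares of the other populations rest on all KO libraries and are not given without those 2. The shares are descriptions, and their difference was not tested.

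**Figure D4:**
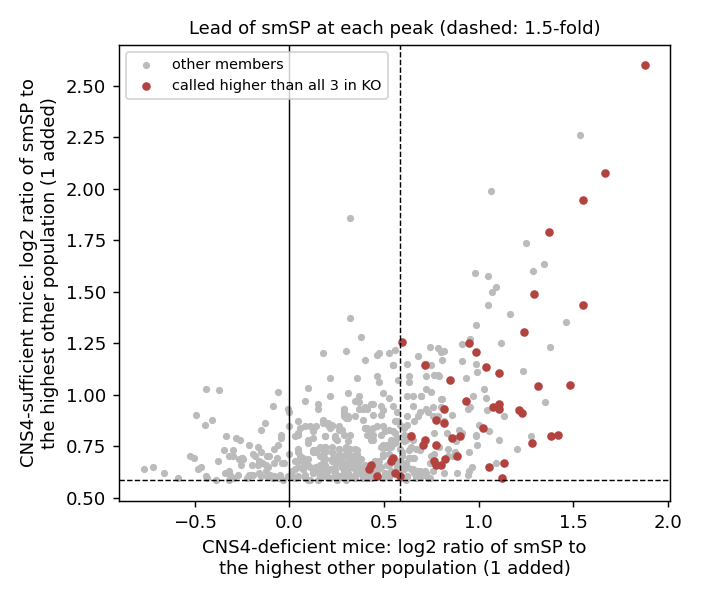
Log2 ratio of smSP to the highest other population at each of the 549 peaks, with 1 added to each mean, in KO mice (CNS4-deficient, horizontal) and in FL mice (CNS4-sufficient, vertical), with dashed lines at the 1.5-fold limit of the rule. The 50 peaks called higher than all 3 other KO populations are red. All points lie above the horizontal line by choice, 184 lie at or right of the vertical dashed line, and 81 lie left of 0.

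At the low end of the KO ratio were peaks assigned to Ism1, Gm38469, Gm51759, Ppp2r2d and Bcl2. Ppp2r2d, a regulatory subunit of phosphatase 2A, has a peak in its gene body with 22.8 and 31.5 in smSP_KO, 45.0 and 49.0 in Treg_KO, 40.6 and 41.4 in preTreg_KO, and 39.0 and 24.4 in mSP_KO. Its FL means were 70.6 ± 25.5 in smSP, 38.3 ± 7.33 in Treg, 44.8 ± 6.48 in preTreg and 28.7 ± 8.83 in mSP (SD, n = 2 each). Peaks with a high FL signal were described as a group of 10, assigned to Ptgfrn, Trps1, Tox, Gm36284, 4930546C10Rik, Btg1, Gm40746, Trak1, Phf14 and Ect2l. In KO mice smSP was the highest mean at 10 of these 10, and 6 were called in all 3 comparisons. The one with the most signal is assigned to Gm40746, a predicted non-coding gene. That peak, at chr10:96201256-96201638, had 501 and 440 in smSP_KO, 249 and 228 in Treg_KO, 374 and 330 in preTreg_KO, and 317 and 343 in mSP_KO, with no overlap between smSP_KO and the rest.

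By position the 549 peaks lay away from gene starts. A promoter window was touched by 12 of the 527 peaks outside chromosome 18 (2.28%), against 18.1% of all peaks and 20.7% of all peaks with smSP_FL of at least 30. The peaks highest in Treg_FL, preTreg_FL and mSP_FL by the same rule touched one at 3.00%, 11.6% and 3.6%. The median distance to the nearest listed start was 25878 bases, against 5257 for all peaks, and 56.5% lay more than 20 kb away, against 31.6%. For peaks highest in Treg_FL, preTreg_FL and mSP_FL the median distances were 20504, 10696 and 21621 bases. Of those peaks 50.6%, 38.4% and 51.9% lay more than 20 kb away, and 70.1%, 74.4% and 67.5% lay in gene bodies. Gene bodies held 366 of the 549 (66.7%), against 76.4% of all peaks. No gene lay within 50 kb of 4.01% of the 549, against 1.15% of all peaks. The width of the 549 had a median of 172 bases, against 170. These shares are descriptions without a test, since neighbouring peaks are not independent.

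**Figure D5:**
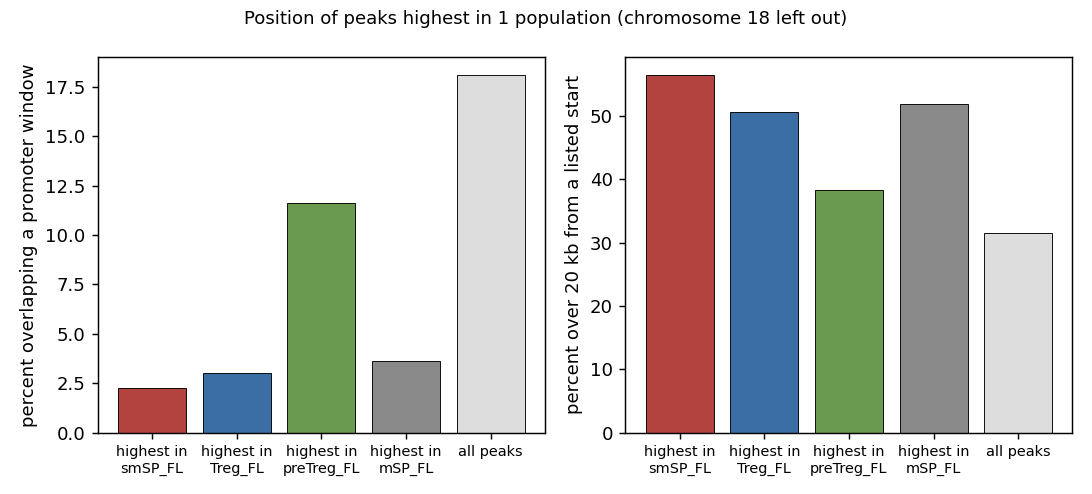
Left, percent of peaks that touch a promoter window; right, percent more than 20 kb from a listed gene start, for peaks highest in each FL population by the same rule and for all peaks, without chromosome 18. Peaks highest in smSP_FL stand at 2.28% and 56.5%, and all peaks at 18.1% and 31.6%.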

How the data were processed

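The deposited table holds a signal, which the authors made by dividing the reads of each of 73442 peaks by 1 size factor per library. Per the submitters' processing notes, the tools were Trimmomatic 0.36 and STAR 2.5.4b on mm10, then SAMtools 1.10 and the peak caller Genrich, with DESeq2 1.24.0 under R 3.6.3. The Genrich version, and whether peaks were called on pooled libraries, are not given in the sources used here. Signal over peaks depends on where peaks were called, and the size factors assume that most peaks do not differ.

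From these values the peaks were chosen on FL means, and limma 3.58.1 (trend, robust) was fitted in R 4.3.3 to log2(value + 1) of the 8 KO libraries, with 1 mean per group, no covariate and a filter at a mean of 10. P-values were adjusted by Benjamini-Hochberg over 73115 peaks in each of 6 comparisons, with 0.05 as the limit. Folds on this scale understate changes of low peaks. Whole reads were recovered from the KO columns (100% of values whole within 1e-04 reads), between 5585827 and 8899473 reads per library, for edgeR 4.0.16 and DESeq2 1.42.0 as alternatives. The median reads behind 1 of the 549 peaks were between 18 and 79 per library, which limits the precision of single peaks. The test was also run on simulated data, but their setting was simpler than these data, so no support is drawn from that run.

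Groups and replicate numbers came from the titles. The numbers pair the libraries because the labels give 1 mouse per number, and the deviations of same-numbered KO libraries correlated at -0.01 to 0.087 over peaks. Genes were assigned by the shortest gene body overlapped, else the nearest within 50 kb, from RefSeq GRCm38.p6. File starts were read as counted from 0, since width equals end minus start, and are printed counted from 1. The promoter table used here has no window on chromosome 18. Named peaks were the 10 with the largest FL ratio, the 10 with the highest smSP_FL mean, the 10 genes with most of the peaks, up to 2 peaks for each of 19 gene lists, those at the limits of the rule, the 5 with the lowest KO ratio, and the 10 with the largest smallest fold among those called in all 3 comparisons. Of these named peaks, 2 are not reported here. The peaks, lists and motifs were chosen with earlier results of these data known, so agreement with those results is no independent support. Alternatives were other pseudocounts, no filter, other scalings, edgeR, DESeq2, a block by mouse, all 16 libraries, exchanged smSP and mSP of KO replicate 2, stricter rules for the peaks, and each library left out. Leaving out both libraries in doubt was chosen after seeing the data.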

Additional observations from a re-analysis of the deposited data

Results flagged for a closer look

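At 3 named peaks smSP minus mSP ran one way in both KO mice and the opposite way in both FL mice, and this difference between genotypes was not tested. For Gm51759 (chr10:14115771-14115868) the log2 difference was -0.66 in KO mice (-0.75 and -0.56) and 0.62 in FL mice (0.55 and 0.68). For Gm38469 (chr15:96287037-96287198) it was -0.36 in KO mice (-0.18 and -0.54) and 1.00 in FL mice (1.09 and 0.92). For Ism1 (chr2:139776479-139776602) it was -0.49 in KO mice (-0.26 and -0.72) and 0.77 in FL mice (1.23 and 0.32). The FL values are positive by the choice of the peaks, and these 3 peaks were named for their low KO ratio. The second KO value of each rests on the libraries whose descriptions name the opposite populations from the titles. With those libraries exchanged it was 0.56 at Gm51759, 0.54 at Gm38469 and 0.72 at Ism1, so the KO mice then ran in opposite ways. Over all 549 peaks 37 (6.74%) showed this pattern. The share of all peaks that show it is not given, so this count is not read as a result about the 549.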

How the results depend on the processing

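Shares below are percentages of the 549 peaks, unless a stricter rule chose fewer. The shares called higher in smSP_KO than in Treg_KO, called lower in Treg_KO than in mSP_KO, and with smSP as the highest KO mean stayed within 1.5 times their values under all alternatives run. Where the smSP and mSP libraries of KO replicate 2 were exchanged, as their descriptions have it, the share higher in smSP_KO was 28.8% over preTreg_KO, 0 over mSP_KO and 0 over all 3. The rule was then met on the KO means at 4.01% (0.316% of all peaks), and smSP was the highest KO mean at 59.2% (20.9% of all peaks). Treg_KO against preTreg_KO gave 0.729% higher and 11.1% lower, and Treg_KO and preTreg_KO were higher than mSP_KO at 0 peaks. The shares of all peaks called in the exchanged fit are not given, so its calls are not to be read against the backgrounds of the full fit. Without these 2 libraries smSP_KO was higher than mSP_KO at 5.46% and than all 3 at 3.83%, Treg_KO higher than mSP_KO at 0.364% and preTreg_KO higher than mSP_KO at 2.00%. The share lower in smSP_KO than in Treg_KO was 0.182% under each of these settings, with 5 added, with quantile normalization and with all 16 libraries.

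With edgeR the shares higher than mSP_KO and than all 3 were 20.4% and 17.3%, and with DESeq2 4.37% and 2.37%. Over all peaks tested, edgeR called 1.89% higher than mSP_KO and DESeq2 0.416%. The other shares of all peaks for these 2 methods are not given in this section. DESeq2 gave 0.546% higher and 13.5% lower for Treg_KO against preTreg_KO, 0.182% higher for Treg_KO against mSP_KO, and 0.729% higher and 20.8% lower for preTreg_KO against mSP_KO. The cause was not tested. With a ratio of at least 2 in the rule, 25.0% were higher than mSP_KO (1.96% of all peaks tested) and 20.0% higher than all 3 (0.131%). That rule was met in KO at 70.0%, and the share of all peaks for it is not given. Treg_KO over preTreg_KO, Treg_KO over mSP_KO and preTreg_KO over mSP_KO gave 1.25%, 0 and 1.25%. The shares of all peaks tested were 5.73%, 20.2% and 19.0%.

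Leaving out 1 library gave ranges of 57.7% to 67.2% higher and 0 to 0.182% lower for smSP_KO against Treg_KO, 35.2% to 46.3% higher against preTreg_KO, 1.46% to 8.38% higher against mSP_KO, and 0.546% to 12% for all 3. For Treg_KO against preTreg_KO they were 0.546% to 2.37% higher and 12.6% to 21.9% lower, for Treg_KO against mSP_KO 0.364% to 1.09% higher, and for preTreg_KO against mSP_KO 0.911% to 2.00% higher and 19.1% to 24.6% lower. With a lone library in a group, that library is assumed to vary like the other groups. The shares of all peaks called in these fits are not given, so the ranges are not to be read against the backgrounds of the full fit.

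The replicate block, which pairs libraries of 1 mouse, gave 15.7% higher than mSP_KO and 10.7% higher than all 3. It added 2 calls among 42 named peaks and removed none. The shares of all peaks called with the block are not given. Of 22 named peaks called against mSP_KO, 12 kept the call with DESeq2 and 3 (Aqr, Ptgfrn and Cd55) whichever libraries of smSP_KO and mSP_KO were left out. Log2 folds of smSP_KO minus mSP_KO that turned with the exchange were Aqr -0.15, Adgrl2 -0.42, Tbcel -0.18, Btg1 -0.00, Satb1 -0.05, Cd247 -0.63, Bcl2 -0.03 and 0.02, Irf1 -0.32, Tox -0.26, Ikzf2 0.22, Klrk1 -0.26, Klrd1 -0.15, Lef1 -0.16, Gm25875 -0.07 and Gm36284 -0.05. Without both libraries in doubt, Tox (-0.06) and Ikzf2 (0.08) turned, and with 1 library left out the folds ran over -0.70 to 0.22 (the Bcl2 peak just past the gene body), -0.11 to 0.51 (the Tox peak), -0.33 to 0.07 (Ikzf2) and -0.01 to 0.93 (Bach2). Single peaks rest on few reads, so folds near 0 cannot be resolved at this depth.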
